A study of Mus musculus with 15 samples.

Results

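The genes described here encode the nuclear part of the mitochondrial respiratory chain and ATP synthase. They were chosen by symbol alone, as every gene whose name begins with Ndufa and a digit, Ndufb, Ndufc, Ndufs, Ndufv, Uqcr, Cox4 to Cox8, or Atp5, leaving out symbols that end in ps, which mark pseudogenes. The rule found 79 genes among the 31017 symbols in the count tables: 37 for complex I, 8 for complex III, 18 for complex IV and 16 for complex V. No measured value entered the rule. The list follows the names, so Ndufa4, which is now assigned to complex IV, is counted with complex I, Ndufab1 is not a member, and Atp5s is a member although its product is a factor that acts on ATP synthase.

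Complex I takes electrons from NADH, complex III passes them from ubiquinol to cytochrome c, and complex IV hands them to oxygen. All 3 pump protons across the inner mitochondrial membrane, and complex V, the ATP synthase, lets the protons back in to make ATP. Each of these complexes is assembled from subunits encoded in the nucleus, which are made in the cytosol and imported, and a few encoded in mitochondrial DNA. Neurons depend heavily on this pathway, while fibroblasts in culture can draw much of their ATP from glycolysis.

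The libraries are RNA immunoprecipitations (RIP) from mice with a dominant mutation in Dnmt1, the DNA methyltransferase that maintains methylation after replication. Fibroblast lines from the tails of heterozygous (Het), homozygous (Hom) and wild type (WT) littermates of one sex were fixed with 1% formaldehyde and precipitated with an antibody against Dnmt1, giving 2 libraries per genotype (Dnmt1 RIP). Polyadenylated RNA was precipitated with an antibody against 5-methylcytosine (m5C RIP), from cortex with 1 Het, 1 Hom and 1 WT library, and from fibroblasts with 1 Het, 1 Hom and 2 WT libraries. One further library per tissue is titled input although its antibody field names IgG, and it is called input here. The labels do not state the allele, the age of the mice, or how many lines or animals stand behind a genotype, so the p-values below measure the spread between libraries, which may be technical. With no input per genotype, RNA pulled down and RNA abundance cannot be told apart between genotypes, and neither can fewer cells of a type and less RNA per cell.

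Depth was uneven, at 217173 to 4913482 counts in genes. In all, 4 genes (Lars2, Gm42418, Gm26917 and Gm10800) took 4.01 to 63.5% of a library, and levels are given as CPM, the counts scaled to a fixed library size, of the total without these 4 genes. On that total 3 counts, the most that a count of 0 allows, came to 31.5 CPM in fibroblast input, to 2.52 to 15.5 CPM in the Dnmt1 RIP and to at most 4.37 CPM in the m5C RIP, and such limits cover counting error only. The counts of fibroblast m5C WT library 1 never fell below those of the Hom library in any of 31017 genes, and they equalled them in 10 of the 79 members, so that library was left out of the fits. It is drawn in the plots and its value is given for some genes, but it is not counted in n.

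Marker genes set the fibroblast libraries apart from each other. The 10 fibroblast markers summed to 22099 and 8008 CPM in the Het Dnmt1 RIP, 1159 and 2640 in Hom and 595 and 2069 in WT. They summed to 520 to 627 CPM in the 4 cortex libraries, to 24740 to 30889 CPM in fibroblast m5C RIP and to 2113 CPM in fibroblast input. In Dnmt1 RIP Hom library 1 and WT library 1 these markers thus stood close to their level in cortex, and both libraries go against the tissue label on this measure. The 10 neuron markers, all detected in each Dnmt1 RIP library, summed to 3455 to 5678 CPM there, against 8436 to 9938 CPM in cortex and 555 to 1120 CPM in fibroblast m5C RIP. The 8 macrophage markers summed to 101 to 4975 CPM in the Dnmt1 RIP, 132 to 151 CPM in cortex and 6828 to 13088 CPM in fibroblast m5C RIP. Cortex m5C libraries held all 10 neuron, all 7 astrocyte and all 7 oligodendrocyte markers, at sums of 9370 to 9938, 4519 to 5296 and 3354 to 3569 CPM. In the Dnmt1 RIP, astrocyte markers summed to 1594 to 2650 CPM and oligodendrocyte markers to 1146 to 1813 CPM. In fibroblast m5C RIP these sums were 446 to 612 and 239 to 429 CPM. All 6 Dnmt1 RIP libraries thus had more of these brain markers than fibroblast m5C RIP, which leaving out some libraries does not remove. This was not confined to brain markers or to the Dnmt1 RIP. Skeletal and heart muscle markers summed to 318 to 1001 CPM in the Dnmt1 RIP and 67 to 162 in fibroblast m5C RIP. Smooth muscle markers went the other way, at 69.1 to 229 CPM in the Dnmt1 RIP and 333 to 1162 in fibroblast m5C RIP. Fibroblast input had 2723 CPM of neuron, 1588 of astrocyte and 768 of oligodendrocyte markers. The part of the markers in the results on the respiratory chain was not tested. Counts of members called in the Dnmt1 RIP and their medians are also given without the libraries that stand apart.

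Subunits of complex IV had the highest levels per length of exon, where the length joins all annotated exons of a gene. In CPM alone, Atp5b (513 to 957) and Atp5a1 (502 to 565) stood above Cox8a (112 to 202) and Cox6b1 (102 to 246) in the m5C libraries fitted. The order of genes thus depends on the length used. Averaged over the 6 m5C libraries used in the fits (SD, n = 6), Cox6a1, a regulatory subunit of complex IV, stood at 554 ± 200 CPM per kb, Cox8a at 248 ± 58.6 and Cox6b1, which joins the monomers of the complex, at 235 ± 88.5. In complex V the leading genes were Atp5k, the e subunit that helps ATP synthase form dimers, at 173 ± 129 CPM per kb, and the genes for the catalytic head, Atp5b at 170 ± 42.4 and Atp5a1 at 169 ± 7.28. The order of these 3 depended on tissue: Atp5k averaged 60.6 CPM per kb in cortex and 285 in fibroblasts, Atp5b 206 in cortex and 133 in fibroblasts, and Atp5a1 168 in cortex and 170 in fibroblasts. Averaged over both tissues, Ndufa2 led complex I at 191 ± 189 CPM per kb, with a lowest library of 25.1 and a highest of 479, followed by Ndufc2 at 127 ± 20.4 and Ndufa8 at 87.2 ± 22.7. Within cortex Ndufa2 averaged 31.9 CPM per kb, below Ndufc2 at 121, and within fibroblasts 351, above Ndufc2 at 133. In complex III, Uqcr10 was at 126 ± 35, Uqcrh at 82.9 ± 40 and Uqcr11 at 80.2 ± 37.2 CPM per kb. The libraries split by tissue for Ndufa2 and Atp5k, as described below, while Atp5a1 and Cox5b (120 ± 8.11 CPM per kb) hardly moved between the 6 libraries.

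Several complex IV subunits come in pairs of genes, with a form found in most tissues and another known from muscle, testis or lung. The widespread form was the higher one in each pair. On the scale of CPM per kb in the 6 m5C libraries, Cox4i1 was at 189 ± 45.8 and Cox4i2, induced by low oxygen, at 1.69 ± 1.21. The heart and skeletal muscle forms Cox6a2 (2.72 ± 1.92), Cox7a1 (5.11 ± 2.07) and Cox8b (0.201 ± 0.493) stood far below their partners Cox6a1, Cox7a2 (89.9 ± 9.81) and Cox8a. The same held for Cox6b2 (3.49 ± 2.94), Cox7b2 (0.398 ± 0.646) and Cox8c (0.975 ± 1.6), which are known from testis, beside Cox6b1, Cox7b (57.1 ± 8.92) and Cox8a. None of these 7 low genes, nor Atp5s, passed the filter on low counts, so 71 of the 79 members entered the main tests, and nothing is said about change in the other 8.

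Whether tissue changes the RNA recovered by the m5C antibody was asked by setting cortex against fibroblasts, with genotype as a covariate. Most respiratory chain genes were lower in cortex. Of the 71 members tested, 47 were lower and 5 higher in cortex (edgeR quasi-likelihood test, Benjamini-Hochberg adjusted over 12275 genes, n = 3 and 3). Over all genes tested, 34.3% were lower and 34.1% higher. The median log2 fold change, cortex over fibroblast, was -0.85 for the members and -0.01 for all genes. In 47 members the 3 cortex libraries all lay below the 3 fibroblast libraries, and in 6 all above, where 33.1% and 40.0% of all genes did so. The summed level of all 79 members was 5847 ± 93 CPM in cortex and 9086 ± 559 CPM in fibroblasts (SD, n = 3 each), with no overlap between the groups.

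The direction was shared by the 4 complexes. Complex V had 12 members lower and 1 higher of 15 tested, with a median log2 fold change of -1.26. Complex IV had 8 lower and none higher of 11 (median -1.09), complex III 6 lower and 1 higher of 8 (median -0.91), and complex I 21 lower and 3 higher of 37 (median -0.76). Summed over its members, complex IV reached 1336 ± 28.7 CPM in cortex and 2419 ± 173 CPM in fibroblasts, and complex I 1865 ± 48.4 CPM in cortex and 2843 ± 244 CPM in fibroblasts (SD, n = 3 each). Within complex I, the 7 nuclear core subunits, which carry the flavin and iron-sulfur clusters or line the quinone site, had a median of -0.29, with 2 higher and 3 lower, and the other 30 a median of -0.81, with 1 higher and 18 lower. That difference between core and other subunits was not tested.

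**Figure D1:**
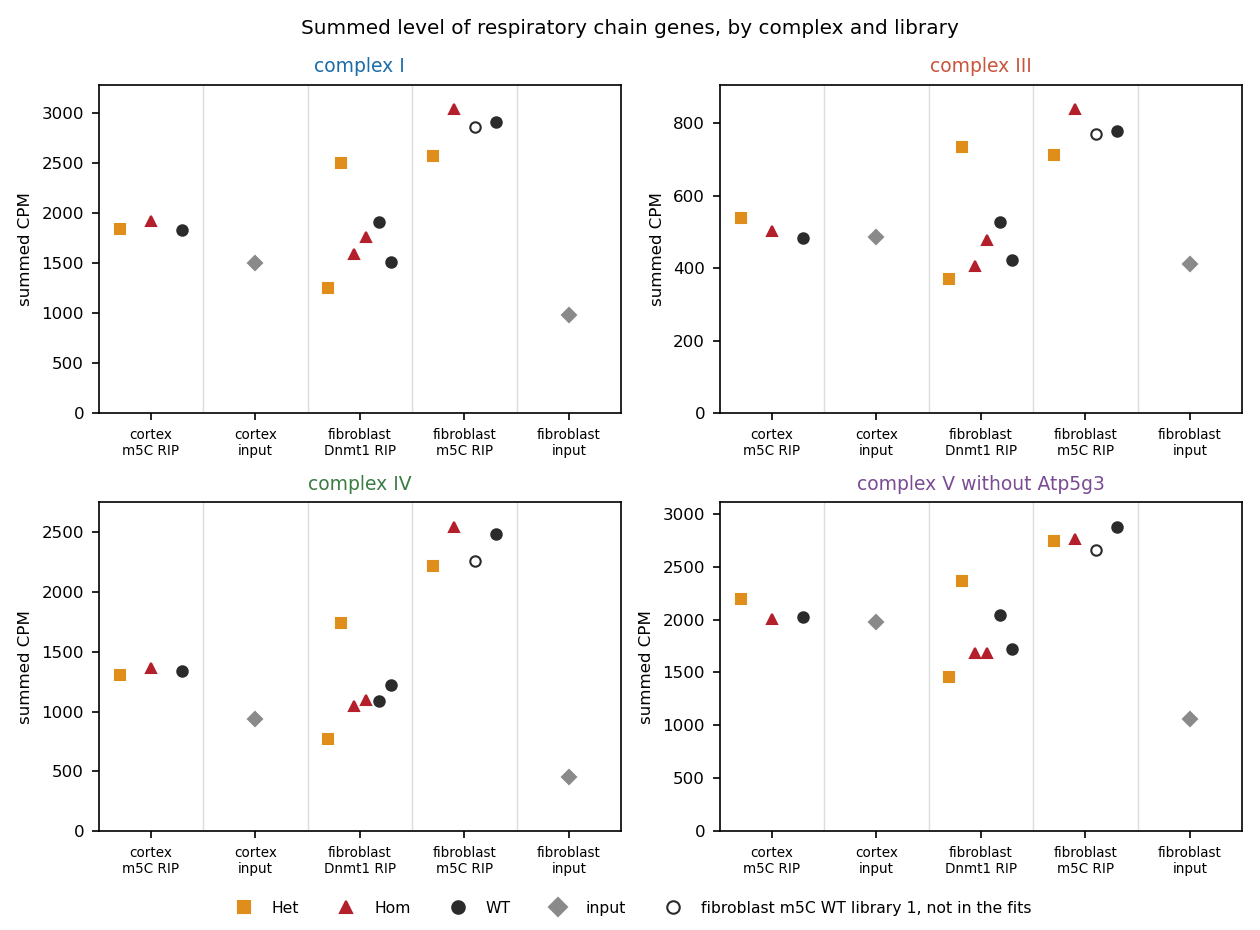
Summed CPM (vertical axes, from 0) of the members of each complex in each of the 15 libraries, by tissue and antibody. Each marker is 1 library, coloured by genotype. The 3 cortex m5C libraries lie below the fibroblast m5C libraries in each panel, and Dnmt1 RIP Het library 2 is the highest of the 6 Dnmt1 RIP libraries. Complex V is drawn without Atp5g3, which alone is at 5604 CPM in fibroblast input.

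The 5 members called higher in cortex came from complexes I, III and V. Uqcrc2 (chr7:120635176-120659524, plus strand, mm10), a core protein of complex III, had 99.1, 90.4 and 95.1 CPM in Het, Hom and WT cortex, against 28.9, 26.2 and 28.3 CPM in Het, Hom and WT fibroblasts. The tissues did not overlap in any genotype, and the log2 fold change was 1.61 ± 0.24 (standard error; adjusted p = 7.25e-07). Exons of Pdzd9 overlap 19.7% of its exon length, and no source used here states the strand used in counting. Its partner core protein gene Uqcrc1 was not called, at 114, 104 and 111 CPM in cortex and 117, 137 and 126 CPM in fibroblasts (-0.36 ± 0.19). Ndufs1 (chr1:63143596-63176833, minus strand), the largest core subunit of complex I, had 119, 129 and 94.3 CPM in Het, Hom and WT cortex and 69.3, 45.2 and 42.9 CPM in fibroblasts (0.95 ± 0.22, adjusted p = 0.000362). Ndufv1 (chr19:4007384-4012806, minus strand), which binds NADH through its flavin, had 134, 132 and 127 CPM in cortex and 69.3, 62.7 and 51.5 CPM in fibroblasts (0.94 ± 0.20, adjusted p = 0.000162). Neither gene overlapped between tissues. The accessory subunit gene Ndufb8 was also higher in cortex (0.99 ± 0.26, adjusted p = 0.00162), as was Atp5b, the catalytic beta subunit of ATP synthase (0.48 ± 0.18, adjusted p = 0.0216), which missed the threshold in 5 of the 6 fits that leave out 1 library (adjusted p from 0.0555 to 0.134 in those 5).

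The largest falls in cortex were those of Ndufa4l2, Ndufa2 and Atp5e. Ndufa4l2 (chr10:127514967-127517154, plus strand), a paralog of Ndufa4 that is induced by low oxygen, had 1.46, 0.869 and 4.06 CPM in Het, Hom and WT cortex, against 61.6, 65.6 and 116 CPM in Het, Hom and WT fibroblasts and 56.1 CPM in the WT library left out. It was under 10 counts in each cortex m5C library and entered the test only through fibroblasts, so its call (log2 fold change -5.47 ± 0.39, adjusted p = 2.17e-13) had to be in this direction. Ndufa4 itself was not called, at 79.4, 60.4 and 48.8 CPM in cortex and 67.9, 89 and 75.6 CPM in fibroblasts. Ndufa2, an accessory subunit of the NADH-oxidising arm, had 22.6, 14.3 and 17.9 CPM in cortex and 149, 274 and 179 CPM in fibroblasts (-3.60 ± 0.25, adjusted p = 1.54e-13). Atp5e, the epsilon subunit of the ATP synthase stalk, had 19.7, 24.8 and 35.8 CPM in cortex and 166, 262 and 226 CPM in fibroblasts (-3.20 ± 0.22, adjusted p = 9.34e-14). Both genes stood several-fold apart between tissues in each genotype.

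In complexes IV and III the genes with the smallest p were also lower in cortex. Cox7a2l (chr17:83501918-83517330, minus strand), which joins complexes III and IV into supercomplexes, had 57.5, 65.2 and 63.4 CPM in Het, Hom and WT cortex and 224, 321 and 246 CPM in fibroblasts (-2.23 ± 0.19, adjusted p = 1.56e-11). Cox5a, a matrix-side subunit of complex IV, had 48.1, 50 and 26 CPM in cortex and 142, 181 and 167 CPM in fibroblasts (-2.14 ± 0.22, adjusted p = 8.5e-10). Cox5b, the zinc-binding subunit, was not called (172, 203 and 193 CPM in cortex, 182, 188 and 206 CPM in fibroblasts). Uqcrb, which helps bind ubiquinone, fell by 2.06 ± 0.29 (adjusted p = 2.37e-07) and Uqcrh, the hinge protein next to cytochrome c1, by 1.46 ± 0.20 on the log2 scale (adjusted p = 2.81e-07). Atp5k had 36.4, 38.2 and 37.4 CPM in cortex and 161, 147 and 219 CPM in fibroblasts (-2.36 ± 0.21, adjusted p = 3.92e-11).

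**Figure D2:**
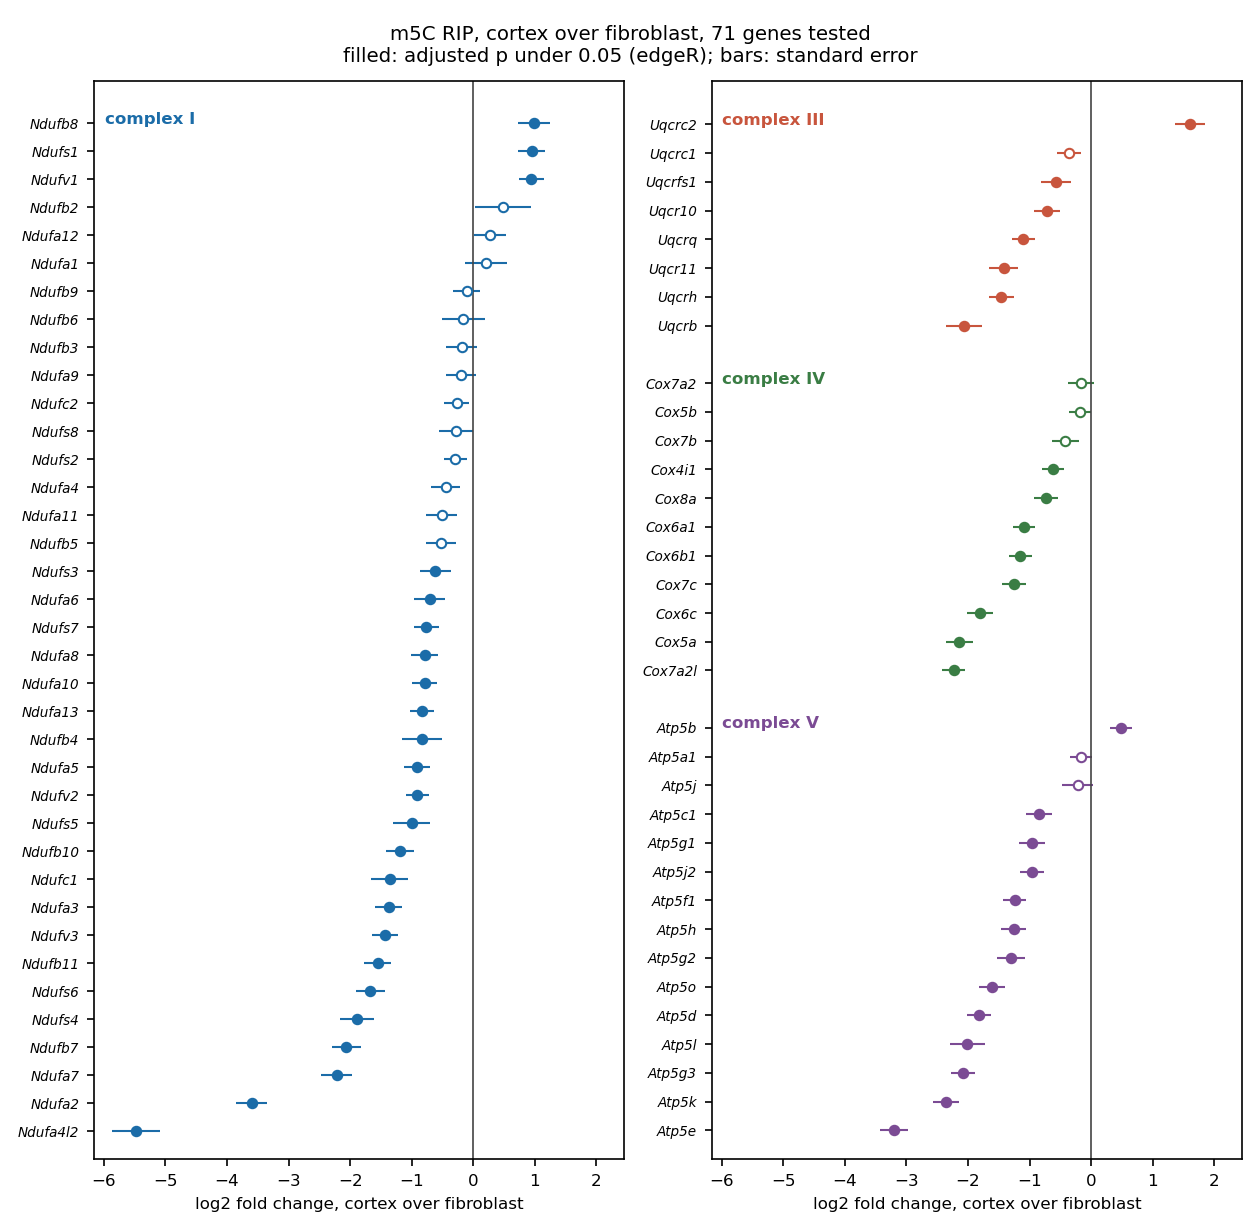
Log2 fold change, cortex over fibroblast m5C RIP (horizontal axes), of the 71 members tested, with standard error bars, sorted within each complex. Filled circles passed an adjusted p of 0.05: 47 lie left of 0 and 5 right of it.

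**Figure D3:**
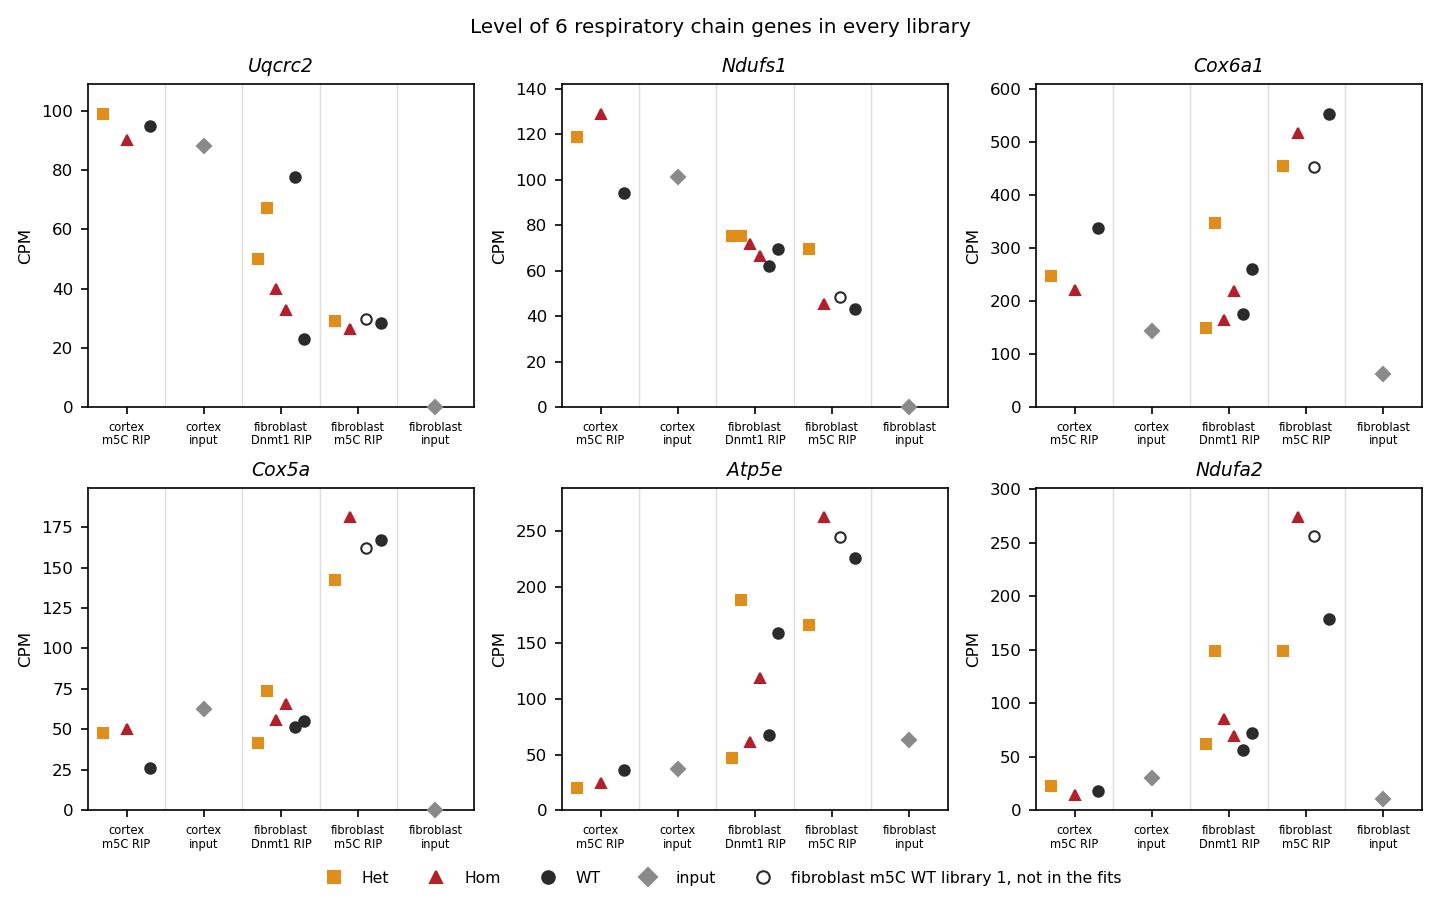
CPM (vertical axes, from 0) of 6 members in each of the 15 libraries, by tissue and antibody, with genotype as colour and shape. Uqcrc2 and Ndufs1 are higher in the 3 cortex m5C libraries than in fibroblast m5C RIP, and Cox6a1, Cox5a, Atp5e and Ndufa2 are lower. Uqcrc2, Ndufs1 and Cox5a have 0 counts in fibroblast input, drawn at 0.

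Other genes of the pathway were counted in the same fit, to be read against the 34.1% of all genes that were higher and the 34.3% that were lower in cortex. Among the 13 genes encoded in mitochondrial DNA, 12 were tested, of which 6 were higher and none lower in cortex, and all 12 estimates were above 0 (median log2 fold change 0.46). These included mt-Nd4l (2.80 ± 0.29, adjusted p = 8.4e-10) and mt-Nd5 (1.54 ± 0.21, adjusted p = 2.26e-07), both membrane subunits of complex I. Among 7 genes for complex II, cytochrome c and related carriers, 2 were higher (Sdha, the flavin subunit of succinate dehydrogenase, 0.87 ± 0.18, and Cyc1, cytochrome c1, 0.61 ± 0.22) and 3 lower, led by Sdhc, a membrane anchor (-2.17 ± 0.21), and Ndufab1, the mitochondrial acyl carrier protein (-1.82 ± 0.28). Of 13 TCA cycle genes 5 were higher, among them Idh3b, a subunit of isocitrate dehydrogenase, at 1.20 ± 0.20, and 3 lower, with Suclg2 at -1.80 ± 0.37 and Dlst at -0.59 ± 0.19. Of 38 assembly factors tested, 5 were higher, led by Atpaf1, a chaperone of ATP synthase (1.61 ± 0.34), and by Ttc19 (1.01 ± 0.24), and 9 lower, led by Coa3 (-1.65 ± 0.27) and Uqcc2 (-1.54 ± 0.25). Among 10 regulators tested, Ppargc1a, the coactivator of mitochondrial biogenesis, was higher (3.18 ± 0.33, adjusted p = 7.15e-10), as was Ppargc1b (1.78 ± 0.33), and Pprc1 (-1.64 ± 0.22) and Yy1 (-0.59 ± 0.19) were lower.

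Scaling moved these counts little. With total counts as the only scaling, the median of all genes moved by 0.14, and 44 members were lower and 5 higher, with a member median of -0.71. Neuron markers were higher in the cortex m5C libraries, and fibroblast and macrophage markers in the fibroblast m5C libraries, as given above. Smooth muscle markers summed to 54.6 to 63.4 CPM in cortex m5C RIP and 333 to 1162 CPM in fibroblast m5C RIP. Tissue was compared through the RNA that the m5C antibody recovered, so recovery and abundance cannot be told apart here.

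The promoters of the members were read for motifs of 3 factors known to drive respiratory chain genes. RefSeq (GRCm38.p6) gave a window of 250 bases before and 50 after the start for 65 of the 79 members, 2 of them listed there under a newer symbol (Atp5f1 as Atp5pb and Atp5s as Dmac2l). The NRF1 motif GCGCANGCG was in 18 members (27.7%) and in 9.63% of 17492 coding genes. The GABPA motif CCGGAAG was in 14 members (21.5%) and in 12.9% of coding genes, and the YY1 motif AAGATGGCG in 7 members (10.8%) and in 2.14% of coding genes. Both strands were searched, and the NRF1 motif can match both strands at overlapping positions. At least 1 of the 3 was in 32 members (49.2%), against 21.8% of coding genes. Of members with a window, 26 of 41 that were lower in cortex, 0 of 3 that were higher and 6 of 16 that were not called had a motif. A match is only a run of letters, and binding was not measured. The windows below are shown 5′ to 3′ on the strand of the gene, with motif letters in capitals. Cox6a1, the highest gene of complex IV per kb, has NRF1 and GABPA motifs. Atp5k, the highest of complex V per kb over both tissues together, has an NRF1 palindrome and a GABPA motif. Ndufs6 has NRF1 and YY1 motifs. All 3 were lower in cortex, whereas Ndufb8 was higher and has none of the 3 motifs. Cox5a and Cox7a2l were also lower in cortex and have none of them. A link between motif and direction was not tested.
Cox6a1 promoter (chr5:115348909-115349208, minus strand): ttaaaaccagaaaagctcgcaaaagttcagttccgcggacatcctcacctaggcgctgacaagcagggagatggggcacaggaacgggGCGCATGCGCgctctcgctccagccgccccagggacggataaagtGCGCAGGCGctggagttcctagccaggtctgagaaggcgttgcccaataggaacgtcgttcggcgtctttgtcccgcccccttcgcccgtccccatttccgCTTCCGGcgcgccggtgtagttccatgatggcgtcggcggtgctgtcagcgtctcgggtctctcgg
Atp5k promoter (chr5:108434350-108434649, minus strand): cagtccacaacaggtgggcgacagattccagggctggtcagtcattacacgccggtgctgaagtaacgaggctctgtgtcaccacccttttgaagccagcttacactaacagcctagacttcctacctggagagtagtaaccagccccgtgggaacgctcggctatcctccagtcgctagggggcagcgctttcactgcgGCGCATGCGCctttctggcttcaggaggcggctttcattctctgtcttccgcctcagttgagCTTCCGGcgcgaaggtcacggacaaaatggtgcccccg
Ndufs6 promoter (chr13:73328433-73328732, minus strand): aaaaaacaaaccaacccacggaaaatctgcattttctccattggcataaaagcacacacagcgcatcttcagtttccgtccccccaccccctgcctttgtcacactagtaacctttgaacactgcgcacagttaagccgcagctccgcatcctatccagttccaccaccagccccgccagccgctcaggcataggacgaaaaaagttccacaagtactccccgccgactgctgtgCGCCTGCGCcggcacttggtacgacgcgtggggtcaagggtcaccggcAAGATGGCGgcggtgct
Ndufb8 promoter (chr19:44555393-44555692, minus strand): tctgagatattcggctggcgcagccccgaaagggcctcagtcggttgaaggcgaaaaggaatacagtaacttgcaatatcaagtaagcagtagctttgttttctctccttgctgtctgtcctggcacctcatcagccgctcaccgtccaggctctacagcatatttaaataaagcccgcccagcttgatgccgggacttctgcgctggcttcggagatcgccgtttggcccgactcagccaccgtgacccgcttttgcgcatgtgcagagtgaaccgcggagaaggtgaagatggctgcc

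The Dnmt1 RIP was set against the m5C RIP within libraries labelled fibroblast, over 6 and 3 libraries with genotype as a covariate. Respiratory chain RNAs were lower in the Dnmt1 RIP. Of 71 members tested, none was higher and 52 were lower (edgeR quasi-likelihood test, adjusted over 12736 genes, n = 6 and 3), where 23.0% of all genes were higher and 23.2% lower. The median log2 fold change was -1.19 for the members and 0.02 for all genes. These fits also scale by TMM factors, so fitted fold changes lie below the ratios of the CPM printed here, with a median log2 difference of -0.45. As ratios of mean CPM the members had a median log2 of -0.74, with 65 of 71 below 0. In 29 members the 6 Dnmt1 RIP libraries all lay below the 3 m5C libraries, as they did in 12.7% of all genes. The m5C RIP started from polyadenylated RNA and the Dnmt1 RIP from fixed cells, so the antibody and the RNA it was offered cannot be told apart. The fibroblast m5C libraries here are those of the tissue comparison, so the results of both comparisons share them.

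All 11 tested members of complex IV were lower in the Dnmt1 RIP (median log2 fold change -1.52), as were 12 of 15 in complex V (median -1.12), 6 of 8 in complex III (-1.17) and 23 of 37 in complex I (-1.17). Cox5a (chr9:57521274-57532426, plus strand) had 41.8 and 73.8 CPM in Het, 55.8 and 65.5 in Hom and 51.8 and 55 in WT Dnmt1 RIP, against 142, 181 and 167 CPM in Het, Hom and WT m5C RIP. The groups were well apart, at a log2 fold change of -1.93 ± 0.26 (adjusted p = 0.000362). Atp5k (chr5:108433244-108434448, minus strand) had 53.5 and 69.8 CPM in Het, 31.9 and 71.4 in Hom and 25.9 and 66.5 in WT Dnmt1 RIP, against 161, 147 and 219 CPM in m5C RIP (-2.09 ± 0.34, adjusted p = 0.00075). Ndufs6 (chr13:73319838-73328542, minus strand), a zinc-binding subunit of complex I, ranged from 20.2 to 56.9 CPM in the Dnmt1 RIP, with a median of 36.2, and had 92.9, 62.7 and 79.9 CPM in m5C RIP (-1.65 ± 0.28, adjusted p = 0.000959). Its highest Dnmt1 RIP library, WT library 1, stood just under its lowest m5C library. Cox7a2l was at -2.07 ± 0.36, Ndufv2, a core subunit of complex I, at -1.56 ± 0.27, Uqcrb at -1.73 ± 0.31, Uqcrh at -1.68 ± 0.33 and Atp5g1, which encodes the ring-forming c subunit of ATP synthase, at -1.52 ± 0.33 (adjusted p from 0.000967 to 0.00348).

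The estimate was above 0 in 4 members, none of them called, namely Ndufb2 (0.89 ± 0.45), Atp5g3 (0.70 ± 0.89), Ndufb8 (0.46 ± 0.43) and Uqcrc2 (0.30 ± 0.36). Ndufs1, the longest of the 71 by exon length, had 75.2 and 75.1 CPM in Het, 71.8 and 66.4 in Hom and 62.1 and 69.4 in WT Dnmt1 RIP, and 69.3, 45.2 and 42.9 CPM in m5C RIP (-0.02 ± 0.25). Its mean CPM was higher in the Dnmt1 RIP, at 70 CPM, than in m5C RIP, at 52.5 CPM, so the sign for this gene depends on the scaling. Over the 71 members, the fold change went up with exon length, with a Spearman's rho of 0.40 across genes, and over all 12651 genes with a length rho was 0.36. For cortex over fibroblast, rho with exon length was 0.12 over the members and 0.33 over all 12193 genes with a length. Genes are not independent replicates and share libraries and depth, so these values describe the tables. The shortest 24 members, at exon lengths of 419 to 1214 bases, had a median of -1.42 in the Dnmt1 RIP over m5C RIP, and the longest 24, of 2101 to 8086 bases, a median of -0.98.

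For the other pathway genes the shares over all genes are again 23.0% higher and 23.2% lower. Of these genes, 3 of 7 for complex II and cytochrome c were lower in the Dnmt1 RIP and none higher, led by Sdhc (-2.16 ± 0.32, adjusted p = 0.00051) and Sdhd (-1.80 ± 0.33). Of 12 mitochondrially encoded genes 0 were called in either direction, with a median of -0.55 (edgeR, 0 at an unadjusted p under 0.05). Of 13 TCA cycle genes 5 were lower, with Mdh2, malate dehydrogenase, at -0.98 ± 0.24 and Dlst at -0.89 ± 0.25. Of 36 assembly factors 2 were lower (Coa3, -1.99 ± 0.36, and Coa5, -1.61 ± 0.34) and 1 higher (Sdhaf3, 2.56 ± 0.61). Sdhaf3 had 1.93, 2.92 and 2.58 CPM in Het, Hom and WT m5C RIP, near the limit of 3 counts there. It passed the filter through the Dnmt1 RIP and could hardly be called lower. Of 10 regulators Ppargc1a was higher (2.62 ± 0.38, adjusted p = 0.00051) and Pprc1 lower (-1.53 ± 0.26).

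The count of 52 depended on libraries and scaling, and the direction did not. It was 48 without Dnmt1 RIP Hom library 1 and WT library 1, which are low in fibroblast markers (median -1.11), and 23 without Het library 1, Hom library 2 and WT library 2, which share the Atp5g3 pattern described below (median -1.05). Leaving out m5C WT library 2 gave 32 lower, and total counts as the only scaling, which moved the median of all genes by 0.15, gave 23 lower and none higher. In that scaling 1718 genes in all were called lower, against 2958 in the main fit. On the higher side were 59.0% of all calls, against 49.7% in the main fit. For the fits with libraries left out, counts over all genes are not given here.

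**Figure D4:**
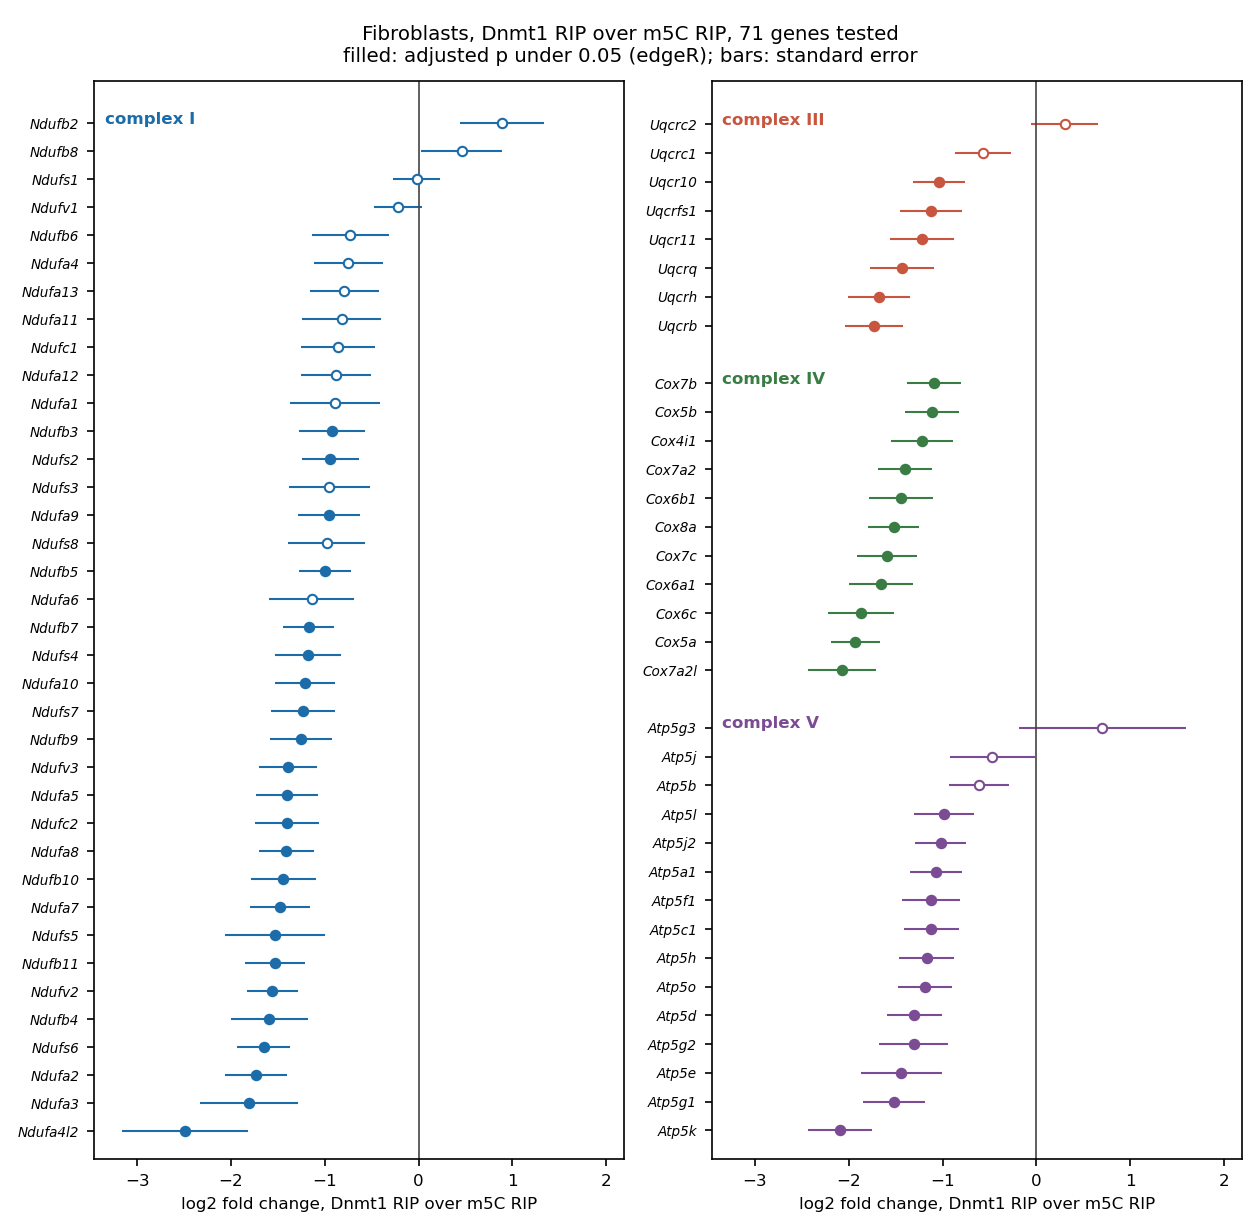
Log2 fold change, Dnmt1 RIP over m5C RIP in fibroblasts (horizontal axes), of the 71 members tested, with standard error bars, sorted within each complex. Filled circles passed an adjusted p of 0.05: all 52 lie left of 0, and the 4 estimates above 0 are open.

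The effect of the mutation was asked first in the Dnmt1 RIP. No respiratory chain gene was called in Het or in Hom. Het over WT gave 0 of 71 members (edgeR, 0% of 13589 genes called; 1 member and 868 genes at an unadjusted p under 0.05), and DESeq2 gave 0 members and 11 genes. Hom over WT gave 0 members (0% of 13589 genes; 2 members and 309 genes at an unadjusted p under 0.05), and DESeq2 gave 0 members and 0 genes. Hom over Het gave 0 members (0% of 13589 genes; 0 members and 629 genes at an unadjusted p under 0.05), and DESeq2 gave 0 members and 15 genes.

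Summed over all members, the level was 4538 and 7448 CPM in Het, 4838 and 6244 in Hom and 5611 and 5966 in WT Dnmt1 RIP. The 2 Het libraries enclosed all 4 others. Het over WT had a median log2 fold change of 0.27 over the members and 0.03 over all genes, with 51 of 71 estimates above 0. Without Het library 2 the members' median was -0.09, and without Het library 1 it was 0.63. Het library 2 also had more macrophage marker RNA than Het library 1 (4975 and 162 CPM summed), and the fibroblast markers given above were higher in both Het libraries than in the other 4. The part of these markers in the result was not tested. Hom over WT had a median of -0.03 (0.01 over all genes), and Hom over Het, which uses the same Het libraries, had -0.37 (-0.02 over all genes), or 0.15 without Het library 2. Without Hom library 1 and WT library 1 the medians were 0.20 for Het over WT, 0.07 for Hom over WT and -0.21 for Hom over Het, with 0 members called.

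The genes with the smallest p show the spread. Cox5b (chr1:36691449-36693681, plus strand) had 120 and 177 CPM in Het, 154 and 145 in Hom and 93.2 and 72.3 in WT Dnmt1 RIP. All 4 mutant libraries lay above both WT libraries, at a log2 fold change of 0.96 ± 0.41 for Het (adjusted p = 0.779) and 0.86 ± 0.41 for Hom (adjusted p = 1). Ndufc2 (chr7:97400003-97407802, plus strand), a membrane-arm subunit of complex I, had 33.4 and 54 CPM in Het, 26.6 and 40.3 in Hom and 129 and 63.7 in WT, at -0.98 ± 0.51 for Het and -1.43 ± 0.52 for Hom. Here all mutant libraries lay below WT, and the highest value came from WT library 1, the shallowest library. Uqcrq, a small subunit of complex III, had 78.5 and 155 CPM in Het, 53.2 and 89.1 in Hom and 77.6 and 40.5 in WT (1.13 ± 0.51 for Het), with overlap between genotypes. Ndufa1 was at -1.19 ± 0.78 in Het, and Ndufa3 at 1.68 ± 1.00 and Ndufa5 at -1.23 ± 0.56 in Hom. For Hom over Het the smallest p belonged to Uqcrb (0.73 ± 0.60) and Ndufb8 (0.78 ± 0.65) on the higher side and to Ndufb7 (-0.70 ± 0.42) and Uqcrq (-0.78 ± 0.47) on the lower. No member's adjusted p in these comparisons was under 0.779.

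In the m5C RIP the mutation was tested over both tissues with tissue as a covariate. Again no member was called. Het over WT gave 0 of 71 (edgeR, n = 2 and 2; 3 at an unadjusted p under 0.05, all lower; 0% of 12275 genes higher and 0.00815% lower), with a median of -0.10. Hom over WT gave 0 of 71 (2 at an unadjusted p under 0.05, both lower; 0% higher and 0.0163% lower), with a median of 0.00, and DESeq2 called 0 members in either. Ndufa10, an accessory subunit of complex I, had the smallest p in Het, with 71.4 and 102 CPM in Het, 73.4 and 106 in Hom and 96.7 and 173 in WT, in each pair cortex first and fibroblasts second. Both mutants lay below WT in both tissues (-0.66 ± 0.24 in Het, adjusted p = 0.999, and -0.58 ± 0.24 in Hom, adjusted p = 1). The fibroblast WT library left out had 102 CPM, no higher than either mutant there. That library is no independent WT value, since its counts never fell below those of Hom, here 82 against 73. Ndufa4l2 was at -1.02 ± 0.39 in Het and -1.04 ± 0.41 in Hom. It had 2, 2 and 5 counts in Het, Hom and WT cortex. Its fibroblast WT library left out had 56.1 CPM, below 61.6 in Het and 65.6 in Hom. Both that library and Hom held 45 counts of this gene, so 56.1 and 65.6 differ only by library total. On the higher side were Ndufs1 (0.47 ± 0.26) and Ndufa3 (0.46 ± 0.26) in Het and Uqcr10 (0.50 ± 0.27) and Atp5j (0.54 ± 0.31) in Hom. Within cortex, with 1 library per genotype and so no test, the log2 ratios of the 66 members with at least 50 counts in at least 1 of the 3 libraries had a median of 0.08 for Het over WT, with 2 past 2-fold, and 0.07 for Hom over WT, with none. The same values over all genes are not given here, so these describe the members alone. Uqcrb had 38.6 CPM in Het, 21.7 in Hom and 13.8 in WT cortex, Ndufb7 21.1 in Het, 29.1 in Hom and 43.1 in WT, and Cox5a 48.1 in Het, 50 in Hom and 26 in WT. The 2 past 2-fold were Uqcrb, with 17 counts in WT, and Ndufb7, with 29 counts in Het, so counting error alone is wide there.

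Whether the genotype difference depends on the antibody was tested as an interaction in 9 fibroblast libraries. It gave 0 of 71 members for Het and 0 of 71 for Hom (edgeR, 0% of 12736 genes; 0 members at an unadjusted p under 0.05 in either; DESeq2 0). The members' median of the Dnmt1 RIP fold change minus the m5C RIP fold change was 0.45 for Het and 0.06 for Hom, and 0.08 over all genes in both. With 1 m5C library per genotype in this fit, these lone libraries were assumed to vary like the Dnmt1 RIP pairs. Without Dnmt1 RIP Het library 2 the Het median was -0.18, and without Hom library 1 and WT library 1 the medians were 0.33 for Het and 0.07 for Hom. The smallest p belonged to Ndufa7 (1.44 ± 0.76) and Ndufa1 (-1.73 ± 1.07) for Het and to Ndufc2 (-1.70 ± 0.80) and Cox5b (1.09 ± 0.72) for Hom, all at an adjusted p of 1.

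Cortex input allowed the m5C RIP to be set against background RNA of the same tissue (3 libraries against 1, whose spread was assumed to be that of the RIP libraries). In complex I, 2 genes were higher after the m5C antibody and none lower, of 73 members tested (edgeR, adjusted over 14372 genes; 0.104% of all genes were higher and 0.188% lower). Ndufc2 had 91.8, 103 and 79.7 CPM in Het, Hom and WT m5C RIP, against 30.4 CPM in input (1.53 ± 0.30, adjusted p = 0.00708). Ndufb8 (chr19:44548572-44555440, minus strand) had 52.4, 64.8 and 62.6 CPM in m5C RIP and 18.8 CPM in input (1.61 ± 0.35, adjusted p = 0.0245). For both genes each RIP library lay above input. Without the cortex Hom library neither passed (adjusted p = 0.0887 for Ndufc2 and 0.201 for Ndufb8), and DESeq2 called Ndufc2 alone. Each call rests on 1 unreplicated input value. The members' median was 0.11, against -0.08 over all genes. Mitochondrially encoded genes were higher in 5 of 13 (median 1.10, none lower), led by mt-Nd4l (3.34 ± 0.46, adjusted p = 3.26e-05) and mt-Atp6 (2.35 ± 0.30, adjusted p = 7.96e-06).

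Fibroblast input was too shallow to measure most members. It held 809 counts in members, 533 of them (65.9%) in Atp5g3, and 37 of the 79 members had 0 counts. In 25 of these 37 all 3 m5C libraries lay above the limit that 0 counts allow in input, and in 7 all 6 Dnmt1 RIP libraries did. Members at 0 in input can only lie above it, and the share over all genes is not given here. These counts thus show no direction and nothing particular to the members. Against 3 counts in input, Cox7c, a small complex IV subunit, was at least 5.56-fold higher in m5C RIP and at least 2.48-fold higher in Dnmt1 RIP, on average. Atp5f1, the peripheral stalk subunit b of ATP synthase, was at least 5.31-fold and at least 3.43-fold higher, and Ndufv3 at least 3.85-fold and at least 2-fold. The edgeR test called 53 members higher and 2 lower of 73 in m5C RIP over input (32.6% and 8.69% of 14372 genes). With 37 members at 0 and 9 at 10 counts or more in the only input library, most members could hardly be called lower, so the split says little about direction. In Dnmt1 RIP over input it called 4 higher (Ndufs1, Cox5a, Cox7c and Atp5f1, all at 0 in input) and none lower of 72 (6.78% and 2.44% of 16558 genes). With 0 counts in the only input library, these 4 entered the test through the RIP libraries and could be called only higher. They rest on libraries and scaling: DESeq2 called 0, 2 passed without Dnmt1 RIP Hom library 1 and WT library 1, 0 without Het library 1, Hom library 2 and WT library 2, and 30 passed with total counts as the only scaling. Of members with counts in input, Cox6a1 had 455, 518 and 554 CPM in Het, Hom and WT m5C RIP and 63.1 CPM in input (3.50 ± 0.51, adjusted p = 2.84e-06), and Atp5a1 had 565, 502 and 532 CPM in m5C RIP and 158 CPM in input (2.25 ± 0.40, adjusted p = 4.66e-05). The 2 members called lower in m5C RIP were Atp5g3 (-3.99 ± 0.25) and Ndufb2, an accessory subunit of complex I. Ndufb2 had 10.1, 11.7 and 8.59 CPM in m5C RIP and 73.6 CPM in input (-2.38 ± 0.79). The input values of Ndufb2 and Cox6a1 were 7 and 6 counts. With total counts as the only scaling Ndufb2 was no longer called (-1.66 ± 0.76).

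Atp5g3 (chr2:73908447-73911326, minus strand) stood apart from its paralogs. Atp5g1, Atp5g2 and Atp5g3 encode the same mature c subunit behind different import sequences. Atp5g3 had 677 and 113 CPM in Het, 101 and 1228 in Hom and 41.4 and 1094 in WT Dnmt1 RIP, against 5604 CPM in fibroblast input. One library of each genotype was thus high and the other low, so genotype does not order these values. In m5C RIP it had 61.2, 62.1 and 74.8 CPM in Het, Hom and WT cortex, and 203, 322 and 236 CPM in Het, Hom and WT fibroblasts. Atp5g1 ranged from 23.4 to 73.8 CPM in the Dnmt1 RIP and was at 10.5 CPM in fibroblast input, and Atp5g2 ranged from 21.7 to 76.4 CPM and had 0 counts in input. In all, 16 genes were at least 5 times higher in Het library 1, Hom library 2 and WT library 2 than in the other 3 libraries, and none was so in the opposite way, a pattern chosen after the values were seen. Atp5g3 is the only member among them. Others were Fam221b, Eif4g2, which encodes a translation factor, and Hnrnpa2b1, an RNA-binding protein gene, and 14 of the 16 had at least 10 counts in fibroblast input and stood at least 5 times higher there than in Het library 2, Hom library 1 and WT library 1. Without Atp5g3 the members summed to 5232 ± 1169 CPM in the Dnmt1 RIP (n = 6) and 8832 ± 509 CPM in fibroblast m5C RIP (SD, n = 3), against 5774 ± 1048 and 9086 ± 559 CPM with it.

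**Figure D5:**
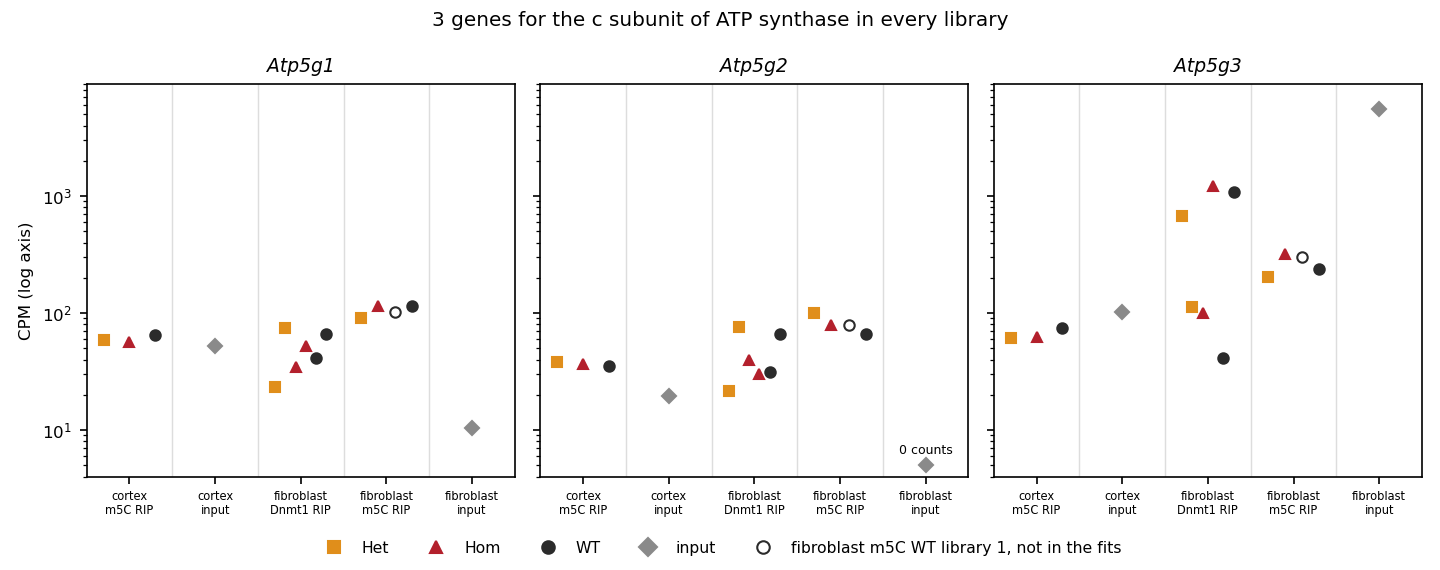
CPM (vertical axis, logarithmic) of Atp5g1, Atp5g2 and Atp5g3 in each of the 15 libraries, by tissue and antibody, with genotype as colour and shape. Atp5g3 splits the Dnmt1 RIP into 3 libraries at 677 to 1228 CPM and 3 at 41.4 to 113 CPM, while Atp5g1 and Atp5g2 stay at 21.7 to 76.4 CPM there. The 0 counts of Atp5g2 in fibroblast input are drawn at the bottom of the axis.

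Some members share sequence with other genes, which limits how firmly their counts can be assigned. Exons of 29 members overlap another gene in the annotation, 11 of them over at least 10% of the exon length, such as Ndufb6 with Smim27 (39%), Ndufa13 with Tssk6 (30%) and Atp5j with Gabpa (12.7%). Near-identical copies were found for 11 members, which have a transcript of another gene of at least 90% identity. Atp5l has 13 such genes, Atp5h 5 and Uqcrb 4. Cox5a, Atp5k and Cox6a1, whose fold changes are given above, are also among the 11. Exons of another gene overlap Cox5a over 12.8% and Ndufa2 over 11.5% of the exon length. Fold changes of these members are uncertain to that extent.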

How the data were processed

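The members, gene lists and motifs were chosen with earlier results of these data known. Reads were trimmed, aligned and counted by the authors with Trim Galore 0.4.1, HISAT2 and featureCounts on mm10, per the submitters' processing notes. No source used here states the annotation or the strand setting. Before the m5C RIP, mRNA was isolated on beads, per the labels' protocols. For the precipitated RNA these name both rRNA depletion and polyA enrichment, without saying which library had which. The authors deposited 1 table of raw counts per gene symbol for each of the 15 libraries. In 6 tables, 5 entries that name no gene held 89.9 to 96.2% of all entries' counts and were left out.

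Coordinates and exon lengths came from GENCODE M21, matched for all 79 members. Genes passed edgeR's filter (minimum count 10, minimum total 15), were scaled by TMM and tested with edgeR 4.0.16 in R 4.3.3 by the quasi-likelihood test, with Benjamini-Hochberg adjustment over all genes tested and a threshold of 0.05. Named members are the 2 with the smallest p per complex and direction among those called. Where none was called, they are the 2 with the smallest p per direction over all members. Also named were the 3 with the highest level per kb in each complex and the tissue isoforms. For other lists the 2 with the smallest p per direction were named. A result of 1 gene of these other lists is not reported here. Genes set beside them for contrast (Uqcrc1, Cox5b, Ndufs6, Ndufb8 and Cox6a1 in some comparisons) were chosen after their values were seen. Levels are CPM without 4 dominant genes throughout, a scale adopted after the totals were seen. The fits were tested on simulated data. Alternatives were DESeq2 1.42.0, other scalings, no filter, single libraries left out, a replicate block and, chosen after seeing the data, sets of Dnmt1 RIP libraries left out.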

Additional observations from a re-analysis of the deposited data

How the results depend on the processing

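The 56 gene results and their alternatives gave 755 values on the same side of the threshold with the same direction, 12 that no longer passed it and none that reversed. Cortex over fibroblast gave a median of -0.71 with total counts only and -0.98 to -0.82 when 1 library was left out, with 4 to 5 members higher and 43 to 47 lower. For Dnmt1 RIP over m5C RIP, 23 members were lower with total counts only and 23 without Dnmt1 RIP Het 1, Hom 2 and WT 2, 32 to 58 were lower when 1 library was left out, and the median was -1.54 with no filter. With total counts only, the lower calls over all genes fell too, as given above. For cortex m5C RIP over input, 1 member was higher with no filter, 1 with DESeq2 and 1 with fibroblast m5C WT replicate 1 added, and 0 to 3 with 1 library left out. The median there was 0.20 with total counts only, -0.07 with no filter and 0.11 to 0.20 with 1 library left out. For fibroblast m5C RIP over input, 1 member was lower with total counts only. For Dnmt1 RIP over input, 30 members were higher with total counts only, 0 with DESeq2, 2 without Hom 1 and WT 1 and 0 without Het 1, Hom 2 and WT 2. There 1 member was lower with RLE size factors, 1 with no filter and 1 without Het 1, Hom 2 and WT 2, and with 1 library left out 2 to 6 were higher and 0 to 1 lower. Leaving out 1 library moved the median of Hom over Het in the Dnmt1 RIP to between -0.72 and 0.15, that of m5C RIP Het over WT to between -0.18 and 0.03, of m5C RIP Hom over WT to between -0.09 and 0.11, and of the Het interaction to between -0.18 and 0.82. The median of the Hom interaction was -0.43 with total counts only. That scaling moved the median of all genes by -0.39 for Hom over WT and -0.35 for Hom over Het in the Dnmt1 RIP, and by -0.47 for the Hom interaction. The cause of these shifts was not tested. Fits without the single input of a comparison could not be made.

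Over 13589 genes, the deviations of same-numbered Dnmt1 RIP libraries had r of 0.059 for Het and Hom and -0.0059 for Het and WT. For Hom and WT r was 0.20. In fibroblast markers and in Atp5g3, the higher library of Hom and that of WT had the same number, and that of Het had the other. A weak correlation does not exclude shared handling, so these values cannot decide whether the numbers pair the samples. With the replicate block 0 members were called, with medians of 0.29 for Het over WT, -0.03 for Hom over WT and -0.39 for Hom over Het. Depth limits fibroblast input most, where 9 members had at least 10 counts.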
